A study of Mus musculus with 192 samples.

Results

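Mouse dendritic cells were given 3 pattern recognition receptor ligands together, labelled PAM, Zymosan and cGAMP, and are set here against the same cells given each pair of those ligands. The 12 libraries were the 3 of PAM + Zymosan + cGAMP (the triplet) and the 3 of each pair, PAM + Zymosan, PAM + cGAMP and Zymosan + cGAMP. They were taken by their labels, with no use of measured values, from a series of 64 groups of 3 libraries in which 7 ligands were tested singly, in pairs and in triplets. Each comparison of the triplet with a pair gives what the third ligand added when the other 2 were already present. The 4 combinations were also read against untreated cells (Ctrl) and against PAM, Zymosan and cGAMP given singly, again with 3 libraries each.

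All groups were bone-marrow-derived dendritic cells grown with GM-CSF from female C57BL/6J mice aged 6 to 8 weeks, and all were lysed after 6 h. Such cultures hold a mixture of dendritic-cell-like and macrophage-like cells. The labels name no genetic change in any group and give no ligand doses. Zymosan is labelled as a depleted preparation, and the cGAMP is the 3',3' form. The labels do not say that replicates came from separate cultures or mice, so the p-values measure the spread between these libraries, which may be technical.

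The 3 ligands are sensed by different receptors. PAM commonly stands for a synthetic bacterial lipopeptide, though the labels give no more than the abbreviation. Such lipopeptides are sensed by Toll-like receptor 2 (Tlr2) with a co-receptor, and signal through MyD88 to NF-kB and MAP kinases. Zymosan is yeast cell wall, and its beta-glucan is bound by Dectin-1 (gene Clec7a), which signals through Syk and Card9. Cyclic GMP-AMP is a second messenger that binds STING (gene Tmem173), leading to phosphorylation of Irf3 and production of interferon beta. Secreted interferon then acts on the same and neighbouring cells through a complex that includes Irf9, which drives the interferon-stimulated genes.

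Each gene's deposited value was its number of UMIs, the unique molecular identifiers that tag single RNA molecules. The 12 libraries held 92149 to 224413 UMIs each, and the 3 triplet libraries 178737, 182593 and 223390. Levels are given in CPM, UMI counts scaled to a common library total with edgeR's TMM factors, and groups as mean ± SD (n = 3). A gene was called higher or lower when edgeR's quasi-likelihood test gave a Benjamini-Hochberg adjusted p under 0.05 over the 4720 genes tested and the log2 fold change was at least 1 in size. "edgeR adjusted p" below means this value, and ± after a log2 fold change is its standard error. The 3 comparisons share the triplet libraries, and each 2 of the pairs share a ligand, so the comparisons are not independent of one another. Libraries of triplet and pair did not overlap for 37.9% of all tested genes with cGAMP added. With Zymosan added that share was 18.8%, and with PAM added 19.9%.

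Some genes listed as dendritic markers were detected in every group. The summed level of a 10-gene dendritic list lay between 6130 and 6760 CPM in the triplet, 5540 and 6080 in PAM + Zymosan, 5840 and 6780 in PAM + cGAMP, 4870 and 5600 in Zymosan + cGAMP and 4800 and 5300 in Ctrl, with Cd209a at 0 throughout. It was thus higher in every triplet library than in any library of PAM + Zymosan or of Zymosan + cGAMP, and overlapped with PAM + cGAMP. A macrophage list summed to 1810 to 2170 CPM in the triplet, 1860 to 2080 in PAM + Zymosan, 1780 to 2080 in PAM + cGAMP, 2140 to 2770 in Zymosan + cGAMP and 3370 to 3620 in Ctrl. A neutrophil list summed to 796 to 1000 CPM in the triplet, 639 to 979 in PAM + Zymosan and 794 to 964 in PAM + cGAMP. It summed to 711 to 849 CPM in Zymosan + cGAMP and 662 to 914 in Ctrl. The part of these lists in the results was not tested. In such bulk samples fewer cells of a type and less RNA per cell cannot be told apart. Erythroid markers were at 0 in all 8 groups.

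Adding cGAMP to PAM + Zymosan produced the broadest change of the 3 additions, and its leading feature was the interferon programme. All 15 of the tested interferon-stimulated genes on the interferon list rose, with log2 fold changes from 2.51 to 5.11 and a median of 3.58. All 11 tested guanylate-binding proteins and immunity-related GTPases rose as well, with a median of 2.72. Against these stood falls in Cxcl3, Saa3 and Hp, which PAM alone raised. Over all genes, 927 of 4720 were called (19.6%), of which 612 were higher (13.0%) and 315 lower (6.67%), while the median log2 fold change of all tested genes was -0.07.

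Cxcl10, a chemokine that draws activated T cells through Cxcr3, stood at 411, 361 and 340 CPM in the PAM + Zymosan libraries. It stood at 12671, 14170 and 14620 CPM in PAM + cGAMP, 7135, 7464 and 7361 in Zymosan + cGAMP, and 8881, 8163 and 8887 in the triplet. The triplet libraries thus lay far above those without cGAMP and between those of the 2 pairs that held it, with no overlap on either side. For PAM added to Zymosan + cGAMP the difference did not pass (log2 fold change 0.24, edgeR adjusted p = 0.543). For Zymosan added to PAM + cGAMP it was -0.68 (edgeR adjusted p = 0.00321), under the fold threshold. The rise when cGAMP was added was 23.7-fold (log2 fold change 4.56 ± 0.22, edgeR adjusted p = 5.76e-51). PAM + Zymosan was close to Ctrl, which had 384 ± 111 CPM, and cGAMP alone gave 11101 ± 244 CPM.

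Ifnb1, which encodes interferon beta itself, was low without cGAMP. Its PAM + Zymosan libraries held 2 UMIs in all (10.5, 0 and 4.99 CPM), against 324, 478 and 326 CPM in the triplet (80.3 times as much, 95% counting interval 21.9 to 668). The PAM + cGAMP libraries had 318, 219 and 260 CPM and the Zymosan + cGAMP libraries 482, 288 and 440 CPM. The triplet overlapped the latter, and Ifnb1 did not pass the test when Zymosan or PAM was the third ligand (edgeR adjusted p = 0.334 and 0.896). Tmem173, the cGAMP receptor, was low in all 4 combinations, at 19.4 CPM in PAM + Zymosan and 26.7 CPM in the triplet (edgeR adjusted p = 0.701).

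**Figure D1:**
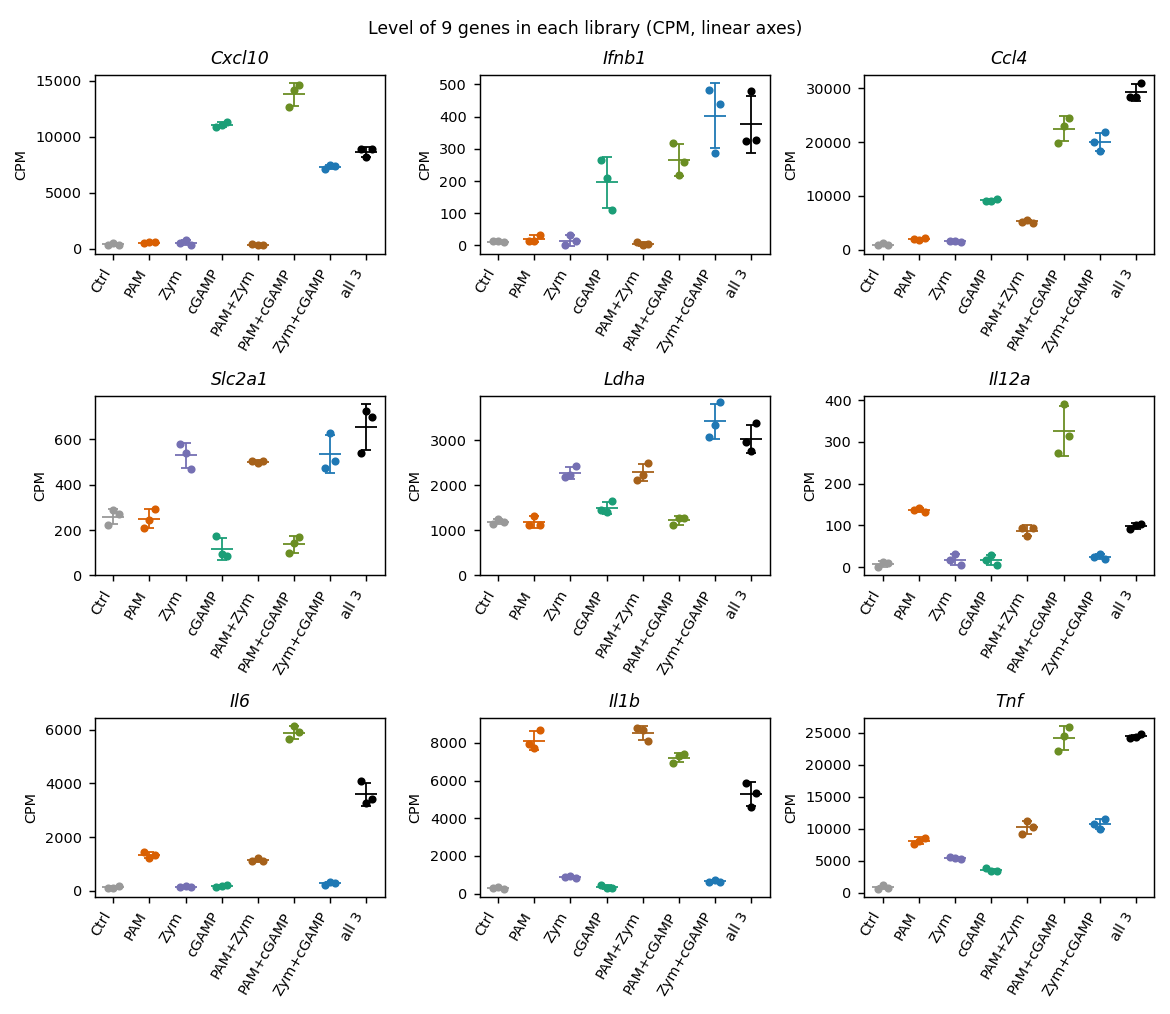
Level (CPM, linear axes) of 9 genes in each library of the 8 groups, with a point for each library, a long tick at the group mean and bars of 1 SD. Zym stands for Zymosan and "all 3" for PAM + Zymosan + cGAMP. Cxcl10 and Ifnb1 are high in every group that held cGAMP, Slc2a1 and Ldha are lowest among the combinations in PAM + cGAMP, and Il6 and Il1b are lowest among the combinations in Zymosan + cGAMP.

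The promoters of these 2 genes are shown because both genes changed strongly with cGAMP. Each is the 250 bases before the RefSeq start on GRCm38.p6, in the direction of the gene, and both genes lie on the minus strand. The Cxcl10 window is chr5:92348890-92349139 and the gene spans chr5:92346638-92348889. The Ifnb1 window is chr4:88522795-88523044 and the gene spans chr4:88522025-88522774. Capitals mark an interferon-stimulated response element match (GAAA, any 2 bases, GAAA), a kappaB match (GGGA, any 2 bases, TTCC) and an AP-1 match (TGANTCA), each searched on both strands.
Cxcl10: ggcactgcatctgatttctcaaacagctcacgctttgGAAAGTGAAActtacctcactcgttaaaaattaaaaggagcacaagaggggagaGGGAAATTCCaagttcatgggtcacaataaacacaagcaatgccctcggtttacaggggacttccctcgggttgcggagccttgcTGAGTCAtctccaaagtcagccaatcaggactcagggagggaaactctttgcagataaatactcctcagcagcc
Ifnb1: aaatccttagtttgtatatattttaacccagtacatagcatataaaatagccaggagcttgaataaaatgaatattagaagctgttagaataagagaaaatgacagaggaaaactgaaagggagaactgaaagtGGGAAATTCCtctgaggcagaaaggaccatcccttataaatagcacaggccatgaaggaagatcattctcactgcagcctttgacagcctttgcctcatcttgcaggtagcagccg
The Cxcl10 window held 1 match to each of the 3 motifs, and the Ifnb1 window held the kappaB match. Over windows of the same length at all 32851 listed starts, 2.98% held the interferon-stimulated response element. The share was 3.68% of the 3614 tested genes with a window and 9.87% of those called higher with cGAMP (44 of 446), against 2.51% of those called lower (6 of 239). A match is a description of the sequence and does not show binding.

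Ifit1, an RNA-binding interferon-stimulated protein, rose from 358, 302 and 290 CPM in PAM + Zymosan to 5720, 5423 and 5878 CPM in the triplet. That was 18.2-fold (log2 fold change 4.19 ± 0.18, edgeR adjusted p = 5.83e-59). Oasl1, an oligoadenylate-synthetase-like protein, gave the largest change on the list, from 94.7, 95.8 and 84.9 CPM to 3155, 3142 and 3195 CPM (34.6-fold). Neither passed the test when Zymosan or PAM was the third ligand. Rsad2, the antiviral enzyme viperin, rose from 714 to 14640 CPM, and Isg15, a ubiquitin-like modifier, from 240 to 2243 CPM. With cGAMP alone the means of Ifit1, Oasl1 and Isg15 were 5445, 2757 and 1349 CPM. The interferon list gave 15 of 15 in every fit that left out a library and under every scaling tried.

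Genes that relay the interferon signal moved in part. Of 16 tested members of the interferon signalling list 6 rose, among them Stat2, Irf1, Irf8, Irf9 and Usp18, and the list's median log2 fold change was 0.64. Of 9 tested members of the STING list 5 rose, namely Irf7, Trex1, Mb21d1, Ifi204 and Ifi205. Irf7, which amplifies interferon production, went from 137 to 1468 CPM (log2 fold change 3.41), and Trex1, a nuclease that removes cytosolic DNA, from 120 to 622 CPM (2.37). Mb21d1, the cGAS enzyme that makes cyclic GMP-AMP, went from 22.9 to 66.0 CPM (1.61, edgeR adjusted p = 0.00979). The Mb21d1 call was not kept in every fit that left out a library, so that 4 or 5 members of the STING list rose.

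Antigen presentation genes moved in the class I pathway. Of 15 tested class I genes 9 rose, all 15 had positive log2 fold changes, and the median was 1.22. Tap1, a subunit of the peptide transporter, was raised 8.57-fold, from 74.6 to 642 CPM (log2 fold change 3.1 ± 0.22). The other members called were Tap2, Tapbp, the immunoproteasome subunits Psmb8, Psmb9 and Psmb10, the activator subunit Psme1, H2-T23 and the regulator Nlrc5. The number called ranged from 7 to 9 with the scaling. Of 9 tested class II genes edgeR and DESeq2 each called 0, 1 had an unadjusted p under 0.05, against 35.4% of all tested genes, and their median was 0.17.

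Of 15 tested dendritic cell maturation genes 9 rose, a number that ranged from 6 to 9 with the scaling. Cd86, a ligand of Cd28 on T cells, stood at 73.7, 103 and 40 CPM in PAM + Zymosan and at 447, 605 and 548 CPM in the triplet. No library overlapped, and the rise was 7.8-fold (log2 fold change 2.96 ± 0.29, edgeR adjusted p = 2.37e-18). Cd86 was at 485, 465 and 499 CPM in PAM + cGAMP and at 645, 525 and 498 CPM in Zymosan + cGAMP, ranges that overlap the triplet. Cd274, which encodes PD-L1, went from 922 to 2253 CPM (1.28), and Il15ra, which presents interleukin 15 in trans, from 88.2 to 616 CPM (2.73). Slamf7, Cd40, Cd200, Clu, Serpinb9 and Marcksl1 were the other members called.

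Of 23 tested cytokine genes 14 rose and none fell when cGAMP was added, with a median of 1.26, and other scalings gave 10 to 14. They included Il15, which supports NK cells and memory T cells and went from 24.8 to 240 CPM (log2 fold change 3.33 ± 0.38). Il27, a cytokine of the interleukin 12 family, had 1 UMI in PAM + Zymosan and 42 in the triplet, a ratio of 35.9 (95% counting interval 6.09 to 1450). Edn1, the vasoactive peptide endothelin 1, went from 253, 118 and 175 CPM to 868, 777 and 858 CPM (2.25 ± 0.26). Its triplet libraries also lay above the 485 to 649 CPM of PAM + cGAMP, though that difference did not pass (edgeR adjusted p = 0.143).

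Of 18 tested chemokines 9 rose and 2 fell. Ccl4, a chemokine that recruits leukocytes, stood at 5200, 5591 and 5014 CPM in PAM + Zymosan and at 28451, 28332 and 31055 CPM in the triplet. The triplet libraries also lay above the 19916 to 24525 CPM of PAM + cGAMP and the 18321 to 21816 CPM of Zymosan + cGAMP, without overlap. Ccl4 rose 5.56-fold with cGAMP (log2 fold change 2.48 ± 0.16, edgeR adjusted p = 1.95e-35). For the other ligands the difference was smaller than the fold threshold, 0.38 for Zymosan (edgeR adjusted p = 0.164) and 0.55 for PAM (edgeR adjusted p = 0.00788). Ccl5, a T cell attractant, went from 4272 to 26520 CPM, and Ccl2, the monocyte attractant, from 94.5 to 753 CPM (3.0 ± 0.28).

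**Figure D2:**
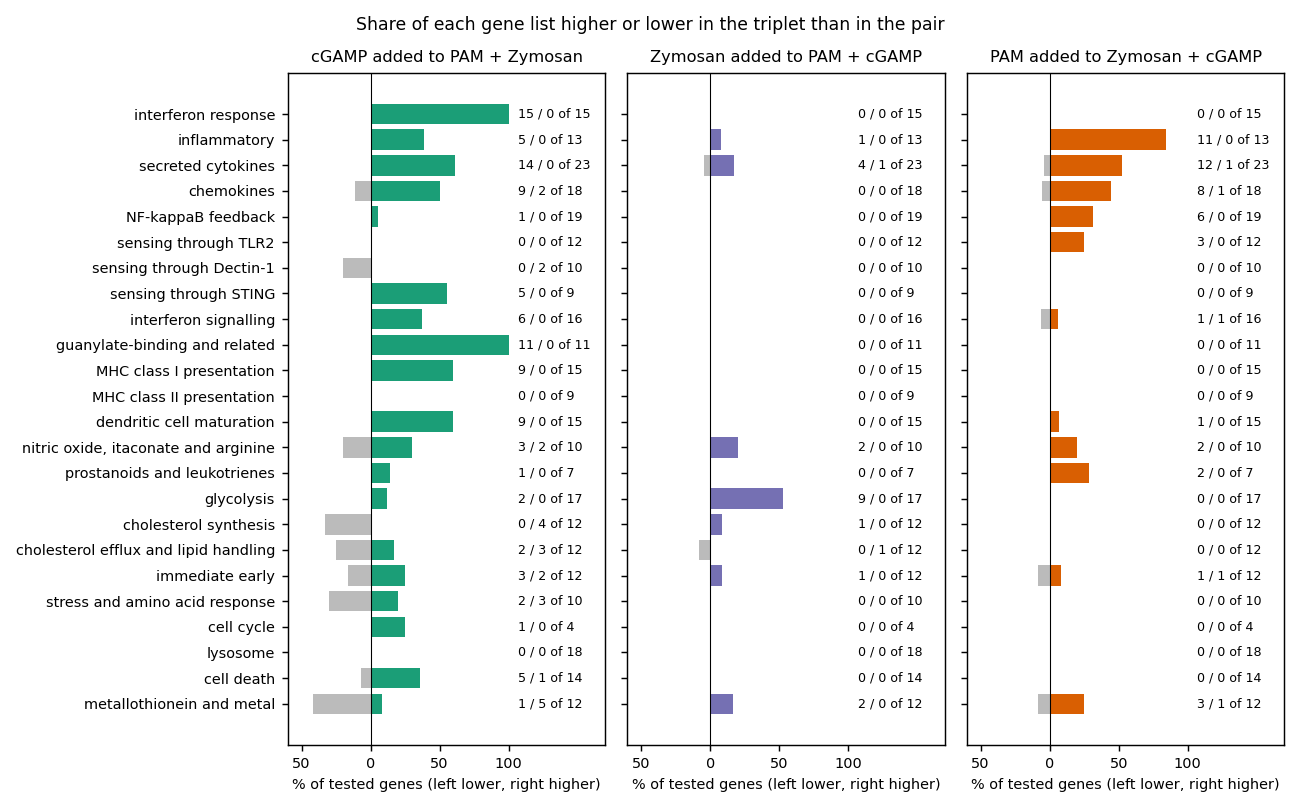
Share of the tested members of each of 24 gene lists that were called higher (right) or lower (left) in the triplet than in the pair, in percent, for each added ligand, with the numbers higher, lower and tested beside each bar. The interferon and guanylate-binding lists reach the full bar when cGAMP was added, glycolysis stands out when Zymosan was added (9 of 17) and the inflammatory list when PAM was added (11 of 13).

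Several genes that PAM alone raised fell when cGAMP joined PAM + Zymosan. Cxcl3, a neutrophil-attracting chemokine, stood at 8285, 8309 and 8800 CPM in PAM + Zymosan and at 1568, 1294 and 1091 CPM in the triplet, 6.45-fold lower (log2 fold change -2.69 ± 0.2, edgeR adjusted p = 4.24e-28). PAM alone gave 10887 ± 339 CPM and cGAMP alone 115 ± 22.8, beside 337 ± 63.7 in Ctrl. Ccl17, which attracts Ccr4-bearing T cells, went from 332 to 108 CPM (-1.57 ± 0.27). Saa3, an acute phase protein, went from 7971 to 2193 CPM (-1.86 ± 0.17), and Hp, which encodes haptoglobin, from 505, 516 and 599 CPM to 71.3, 147 and 82.7 CPM (-2.45 ± 0.26).

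Of 12 tested genes of cholesterol synthesis 4 fell and none rose, with a median of -0.83. Fdps, farnesyl diphosphate synthase, went from 116, 140 and 105 CPM to 45.3, 44.6 and 15.5 CPM (log2 fold change -1.79 ± 0.4, edgeR adjusted p = 0.000113). Others that fell were Mvd (-2.21, edgeR adjusted p = 0.0261) and Cyp51 (-1.18, edgeR adjusted p = 0.0482), and 1 to 3 members of the list were called when a library was left out. The Cyp51 call was lost in 8 of 12 alternatives, DESeq2 among them, and the Mvd call in 5 of 11. Mvd had 4 UMIs in the triplet. Abca1, which exports cholesterol, fell from 330 to 116 CPM (-1.48 ± 0.24). On the Dectin-1 list Clec4n, which encodes the receptor Dectin-2, fell from 1034 to 427 CPM (-1.24 ± 0.16). Prkcd, the kinase that links Syk to Card9, fell from 1494 to 664 CPM (-1.17 ± 0.13), and the other 8 tested members of that list were not called.

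The genes with the largest falls were of low level. Tfec, a transcription factor of the Mitf family, went from 200, 169 and 89.9 CPM to 19.4, 12.7 and 10.3 CPM (log2 fold change -3.3 ± 0.5). Adora2b, an adenosine receptor, went from 126 to 14.6 CPM (-3.14), the adaptor Dok2 from 123 to 15.5 CPM (-2.96) and the AMP deaminase Ampd3 from 124 to 15.8 CPM (-2.95). The Dok2 call was lost with counts thinned to equal totals. Ado and Spen had 3 and 2 UMIs in the triplet, giving triplet-to-pair ratios of 0.0712 (95% counting interval 0.014 to 0.225) and 0.0683 (0.00784 to 0.274). Among the rises of low genes Intu, Ccne1 and Serpina3f had 1, 1 and 3 UMIs in PAM + Zymosan, and ratios of 52.9 (9.16 to 2124), 41.8 (7.17 to 1686) and 33.6 (11.2 to 165).

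Other gene groups moved in part. Of 14 tested cell death genes 5 rose and 1 fell. Over all tested genes 13.0% rose and 6.67% fell, so the 1 fall is near the share over all genes. The number on the list that rose was 2 to 5 with the scaling and 3 to 6 when a library was left out. Among the rises was Mlkl, the effector of necroptosis, from 32.0 to 220 CPM (log2 fold change 2.73 ± 0.37). Bcl2l1, which encodes Bcl-xL, was the member that fell (-1.68). The number that fell was 0 to 2 when a library was left out. Casp4 (1.2) passed with TMM but not with library size alone or with counts thinned to equal totals. Hmox1, haem oxygenase 1, fell from 1531 to 623 CPM (-1.29 ± 0.18) while Irg1, the itaconate-producing enzyme, rose from 1574 to 4232 CPM (1.41 ± 0.11). A 4-gene list of plasmacytoid dendritic cell markers summed to 179 to 285 CPM in PAM + Zymosan and 797 to 853 CPM in the triplet. Its 2 tested members, Bst2 (1.6) and Tcf4 (2.46), rose, whereas Siglech and Ccr9 each had 1 UMI in either group. Bst2 is also an interferon-stimulated gene, and the part of such cells in the results was not tested.

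The balance of rises and falls depended on the scaling. The triplet's TMM factors were 0.89 to 0.90 and those of PAM + Zymosan 1.08 to 1.09. With TMM 66.0% of the called genes were higher. With library size alone 43.8% were higher (466 against 597) and the median of all genes moved to -0.34, and after centring on that median the share was 57.2% (546 against 409). Named genes near the fold threshold are affected: the cGAMP effect on Tnf was 1.26 with TMM and 0.98 with library size alone.

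Adding Zymosan to PAM + cGAMP changed fewer genes, and glycolysis was the list with the largest share of members called. Of 17 tested glycolysis and glucose uptake genes 9 rose and none fell, all 17 log2 fold changes were positive, from 0.19 to 2.22, and the median was 1.02 against 0.0 over all tested genes. Over all genes 87 were called (1.84%), 71 higher (1.5%) and 16 lower (0.339%), and 53 without PAM + cGAMP replicate 2. Il12a, which encodes the p35 subunit of interleukin 12, was among the falls.

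Slc2a1, the glucose transporter Glut1, stood at 97.1, 144 and 171 CPM in PAM + cGAMP and at 538, 726 and 698 CPM in the triplet. It was at 505, 494 and 504 CPM in PAM + Zymosan and at 473, 627 and 503 CPM in Zymosan + cGAMP. The PAM + cGAMP libraries were thus the low ones, the Zymosan + cGAMP libraries overlapped the triplet and the PAM + Zymosan libraries lay just below it. The rise was 4.67-fold (log2 fold change 2.22 ± 0.25, edgeR adjusted p = 2.58e-13). Ctrl had 259 ± 33.7 CPM, Zymosan alone 529 ± 54.7 and cGAMP alone 118 ± 48.9, so that the low level of PAM + cGAMP lay below untreated cells. Slc2a1 overlaps the gene models Gm12867 and Gm12868 on the other strand, and the sources used here do not say whether counting used the strand.

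Ldha, the lactate dehydrogenase subunit that makes lactate from pyruvate, went from 1112, 1278 and 1278 CPM in PAM + cGAMP to 2967, 2759 and 3371 CPM in the triplet. That was 2.47-fold (log2 fold change 1.31 ± 0.16, edgeR adjusted p = 1.26e-11), without overlap. Pgam1, phosphoglycerate mutase, went from 159, 294 and 232 CPM to 680, 688 and 688 CPM (1.55 ± 0.21, edgeR adjusted p = 1.27e-09). In PAM + Zymosan it had 779, 773 and 754 CPM, above all 3 triplet libraries. Hk2, the inducible hexokinase, went from 247, 301 and 308 CPM to 648, 695 and 739 CPM (1.27 ± 0.18, edgeR adjusted p = 8.63e-09), and it also rose when cGAMP was added to PAM + Zymosan (1.12 ± 0.17), though not with library size alone, without PAM + Zymosan replicate 3 or with counts thinned to equal totals.

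The other members called were Gpi1, Pfkl, Tpi1, Pgk1 and the lactate exporter Slc16a3. Tpi1, triose phosphate isomerase, went from 138 to 346 CPM (log2 fold change 1.34 ± 0.25), and Slc16a3 from 61.8, 47.8 and 116 CPM to 201, 210 and 264 CPM (1.56 ± 0.35, edgeR adjusted p = 0.00113). Pkm, pyruvate kinase, passed the adjusted p but not the fold threshold (0.95 ± 0.15, edgeR adjusted p = 5.86e-07). Gapdh (0.46, edgeR adjusted p = 0.178), Aldoa (0.19, edgeR adjusted p = 0.72) and Pfkfb3 (0.62, edgeR adjusted p = 0.181) did not pass. The mRNA of Hif1a, a transcription factor known to drive this pathway, had a log2 fold change of 0.23 (edgeR adjusted p = 0.732). Leaving out single libraries gave 6 to 10 called members, and DESeq2 gave 9.

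**Figure D3:**
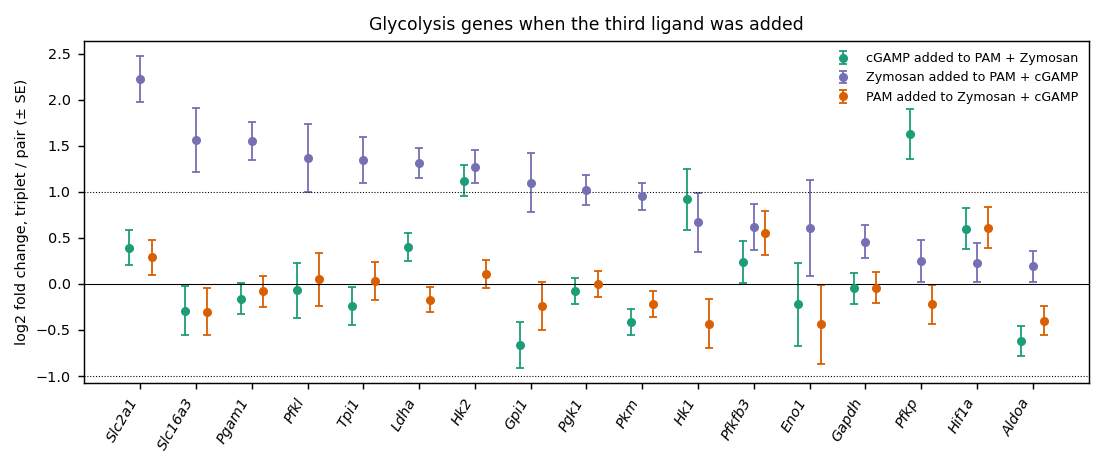
log2 fold change of the triplet over each pair for the 17 tested glycolysis and glucose uptake genes, with bars of 1 standard error. The points for added Zymosan all lie above 0, from 0.19 to 2.22; with cGAMP added 2 members were called (Hk2 and Pfkp, neither with counts thinned to equal totals), and with PAM added none.

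Bnip3, a mitophagy receptor whose induction by low oxygen is well known, stood at 0, 20.5 and 20.5 CPM in PAM + cGAMP and at 90.7, 76.5 and 119 CPM in the triplet. The rise was 6.29-fold (log2 fold change 2.65 ± 0.57, edgeR adjusted p = 0.000491). PAM + Zymosan had 179, 66.3 and 35.0 CPM and Zymosan + cGAMP 114, 109 and 111 CPM. Its promoter window, chr7:138909507-138909756 on the minus strand of GRCm38.p6, is shown for the ACGTG core of the hypoxia response element. Capitals mark CACGTG, which holds ACGTG on both strands, overlapping.
Bnip3: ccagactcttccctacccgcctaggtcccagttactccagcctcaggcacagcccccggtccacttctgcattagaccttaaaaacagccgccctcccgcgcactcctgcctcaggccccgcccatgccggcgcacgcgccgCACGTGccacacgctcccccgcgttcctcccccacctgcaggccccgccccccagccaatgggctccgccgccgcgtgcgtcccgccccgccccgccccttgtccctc
ACGTG on either strand was present in 16.6% of all listed windows, 24.0% of the tested genes' windows and 27.1% of the windows of genes called higher with Zymosan (16 of 59). The share among the called genes was thus near that of the tested genes.

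Of 12 tested genes of the metallothionein and metal list 2 rose with Zymosan, 1 or 2 when a library was left out, and the median was -0.1. Of the metallothioneins, which bind zinc and copper, Mt2 rose from 150, 150 and 123 CPM to 317, 389 and 538 CPM (log2 fold change 1.57 ± 0.25) and Mt1 had 1.1 ± 0.2. The Mt1 call was lost without triplet replicate 3. Hbegf, an Egf receptor ligand, went from 26.5, 68.4 and 34.2 CPM in PAM + cGAMP to 220, 204 and 191 CPM in the triplet, 4.56-fold (log2 fold change 2.19 ± 0.38, edgeR adjusted p = 6.13e-06). Vegfa, the vascular growth factor, went from 8.82, 20.5 and 6.84 CPM to 84.2, 63.7 and 56.9 CPM (2.39 ± 0.64, edgeR adjusted p = 0.0134). Neither gene had overlapping libraries, and both had their highest mean in Zymosan + cGAMP, at 227 and 123 CPM. Hmox1 rose from 250 to 623 CPM (1.3 ± 0.24, edgeR adjusted p = 1.84e-05), while it fell when cGAMP was the third ligand. With counts thinned to equal totals its rise with Zymosan was not called (1.01).

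Other large rises were Gm7120, from 8.82, 13.7 and 6.84 CPM to 117, 127 and 134 CPM (log2 fold change 3.59 ± 0.6, edgeR adjusted p = 1.81e-06), and Car2, a carbonic anhydrase, from 26.5, 27.3 and 41.0 CPM to 162, 166 and 227 CPM (2.52 ± 0.41). F3, tissue factor, the trigger of coagulation, went from 8.82, 0 and 20.5 CPM to 58.3, 44.6 and 140 CPM (3.0 ± 0.64, edgeR adjusted p = 0.000506), a call lost without triplet replicate 3. Slc29a3, a lysosomal nucleoside transporter, gave 2.67 ± 0.53. Vasn had a ratio of 21.7 (95% counting interval 3.58 to 889), and its call was lost without PAM + cGAMP replicate 2. Insig1, which restrains sterol synthesis, went from 246 to 545 CPM (1.14 ± 0.25), and Ier3, an immediate early gene, from 121 to 324 CPM (1.43 ± 0.27).

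Il12a stood at 274, 390 and 314 CPM in PAM + cGAMP and at 90.7, 102 and 103 CPM in the triplet, 3.3-fold lower (log2 fold change -1.72 ± 0.26, edgeR adjusted p = 7.69e-08). PAM + Zymosan had 94.7, 73.7 and 94.9 CPM and Zymosan + cGAMP 24.5, 32.0 and 19.4 CPM. The triplet therefore overlapped PAM + Zymosan and lay between the 2 pairs that held cGAMP. PAM raised Il12a when it was the third ligand (1.97 ± 0.42, edgeR adjusted p = 0.000288), and cGAMP gave 0.17 (edgeR adjusted p = 0.767). The gene lies at chr3:68690644-68698547, plus strand, GRCm38.

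The other named falls rested on few libraries. Tfec (log2 fold change -2.03, edgeR adjusted p = 0.0326), the endosomal adaptor Appl1 (-2.0, edgeR adjusted p = 0.00459) and Nr1h3, the sterol receptor LXR alpha (-1.9, edgeR adjusted p = 0.0197), each lost the call when single libraries were left out. So did Nab1 (-1.78) and Osbpl3 (-1.65). Il6 fell by 0.71 on the log2 scale and Cxcl10 by 0.68, both with an edgeR adjusted p under the threshold (1.32e-05 and 0.00321) but under the fold threshold. Clec7a, the receptor gene for beta-glucan, had a log2 fold change of 0.87 ± 0.21 with Zymosan (edgeR adjusted p = 0.00414), from 212, 171 and 226 CPM to 292, 382 and 429 CPM, also under the fold threshold except without triplet replicate 1.

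With Zymosan added, 1.84% of all tested genes were called and 12.9% had an unadjusted p under 0.05. Of the interferon-stimulated list 0 of 15 were called by edgeR or by DESeq2 and 5 had an unadjusted p under 0.05. Its median was -0.2, with 12 of 15 log2 fold changes below 0, and 2 members passed edgeR's adjusted p under the fold threshold. The counts were alike for the guanylate-binding list (0 of 11, 4 with an unadjusted p under 0.05 and 0 by DESeq2) and the chemokines (0 of 18, 5 with an unadjusted p under 0.05 and 0 by DESeq2). Such counts of 0 are near the share called over all genes. Of the inflammatory list 1 of 13 was called, Il10.

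Adding PAM to Zymosan + cGAMP raised most genes of the inflammatory list. Of 13 tested members of that list 11 rose, all 13 log2 fold changes were positive, and the median was 2.19 against 0.01 over all tested genes. They were Tnf, Il6, Il1a, Il1b, Il12b, Il10, Cxcl1, Cxcl2, Ccl3, Ptgs2 and Nfkbiz, and 10 or 11 of them were called whichever library was left out and under every scaling tried. The tested members not called were Nfkbia and Tnfaip3, and dependence on NF-kB was not tested. Over all genes 148 were called (3.14%), 108 higher (2.29%) and 40 lower (0.847%). Without the fold threshold 260 passed (5.51%).

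Il6, the acute phase cytokine, had the largest log2 fold change of the list's members with at least 50 CPM in both groups. It stood at 220, 314 and 300 CPM in Zymosan + cGAMP and at 4075, 3282 and 3438 CPM in the triplet, 12.7-fold higher (log2 fold change 3.67 ± 0.17, edgeR adjusted p = 9.93e-53). PAM + cGAMP had 5639, 6145 and 5906 CPM, above every triplet library, and PAM + Zymosan 1126, 1208 and 1104 CPM, below every one. Adding cGAMP raised Il6 3.14-fold (1.65 ± 0.14, edgeR adjusted p = 2.35e-22). PAM alone gave 1336 ± 128 CPM, cGAMP alone 177 ± 38.9, Zymosan alone 154 ± 14.6 and Ctrl 126 ± 48.6. The gene spans chr5:30013114-30019981 on the plus strand of GRCm38. Its RefSeq window, chr5:30012864-30013113, is shown because Il6 rose with both PAM and cGAMP, with the AP-1 match (TGAGTCA) and the kappaB match (GGGATTTTCC) in capitals.
Il6: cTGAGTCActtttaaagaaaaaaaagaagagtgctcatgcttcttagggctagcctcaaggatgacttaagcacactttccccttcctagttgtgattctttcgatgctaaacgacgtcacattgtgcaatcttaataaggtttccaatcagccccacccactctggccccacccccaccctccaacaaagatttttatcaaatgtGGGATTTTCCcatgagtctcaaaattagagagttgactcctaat
A kappaB match was present in 1.21% of all windows, 1.58% of the tested genes' windows and 5.81% of the windows of genes called higher with PAM (5 of 86). For TGANTCA the shares were 6.75%, 4.59% and 6.98% (6 of 86).

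Il1b, the inflammasome-processed cytokine, stood at 645, 723 and 605 CPM in Zymosan + cGAMP and at 5888, 4614 and 5351 CPM in the triplet. The rise was 8.05-fold (log2 fold change 3.01 ± 0.14, edgeR adjusted p = 4.16e-54). Both pairs with PAM lay above every triplet library, at 8811, 8699 and 8120 CPM in PAM + Zymosan and 6962, 7307 and 7402 CPM in PAM + cGAMP. Adding cGAMP changed Il1b by -0.69 ± 0.11 (edgeR adjusted p = 1.03e-07) and adding Zymosan by -0.45 (edgeR adjusted p = 0.00612), both under the fold threshold. Il1a, its relative that acts as an alarmin, rose from 1009 to 4594 CPM (2.19 ± 0.14).

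Ptgs2, the cyclooxygenase of prostaglandin synthesis, went from 122, 179 and 194 CPM in Zymosan + cGAMP to 1341, 1268 and 1386 CPM in the triplet. That was 7.81-fold (log2 fold change 2.97 ± 0.22, edgeR adjusted p = 1.26e-27), and the triplet libraries exceeded all others of the 4 combinations, the next being 1218 CPM in PAM + cGAMP. The difference between the triplet and PAM + cGAMP did not pass (0.33, edgeR adjusted p = 0.398). Cxcl1, a neutrophil attractant, went from 131, 147 and 116 CPM to 1490, 1051 and 982 CPM, 8.94-fold (3.16 ± 0.25, edgeR adjusted p = 6.6e-25), and it overlapped PAM + cGAMP and lay below the 1603 to 1863 CPM of PAM + Zymosan. Cxcl2, which acts on the same receptor, went from 2242 to 6464 CPM (1.53 ± 0.17).

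Tnf, the early inflammatory cytokine, stood at 10702, 9980 and 11494 CPM in Zymosan + cGAMP and at 24208, 24330 and 24732 CPM in the triplet. It was higher by 2.28-fold (log2 fold change 1.19 ± 0.15, edgeR adjusted p = 3.26e-11). PAM + cGAMP reached 22166, 24499 and 25926 CPM, spanning the triplet libraries (Zymosan effect 0.01 ± 0.15, edgeR adjusted p = 0.986). Ccl3, a chemokine related to Ccl4, gave a like picture, with means of 5821 CPM in Zymosan + cGAMP, 5925 in PAM + Zymosan, 15042 in PAM + cGAMP and 14944 in the triplet. Il12b, the p40 subunit of interleukin 12, was low, at 40.8, 12.8 and 0 CPM without PAM and 110, 147 and 41.4 CPM with it (2.66 ± 0.76, edgeR adjusted p = 0.0147), and lost the call when several single libraries were left out.

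Among all chemokines 8 of 18 tested rose with PAM and Cxcl9 fell. Ccl2 went from 165 to 753 CPM (log2 fold change 2.18 ± 0.25) and Ccl22, a Ccr4 ligand, from 397 to 837 CPM (1.1 ± 0.17). Cxcl3 had 261, 275 and 286 CPM in Zymosan + cGAMP and 1568, 1294 and 1091 CPM in the triplet (2.25 ± 0.26). Cxcl9, a Cxcr3 ligand induced by interferon gamma, stood at 555, 563 and 615 CPM in Zymosan + cGAMP and at 168, 217 and 129 CPM in the triplet (-1.77 ± 0.23, edgeR adjusted p = 8.22e-11). It was at 326, 321 and 226 CPM in PAM + cGAMP and 10.5, 44.2 and 15.0 CPM in PAM + Zymosan, so that the triplet lay between the pairs.

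Of 19 tested NF-kB feedback genes 6 rose with PAM and none fell. They were the nuclear IkB proteins Nfkbiz and Bcl3, the inhibitor Tnip3, Nfkb2, the adaptor Traf1 and the ribonuclease Zc3h12a. Nfkbiz went from 74.5 to 316 CPM (log2 fold change 2.11 ± 0.26). Of 12 tested members of the TLR2 list 3 rose, namely Tlr2, Cd14 and Tlr1. Tlr2 went from 286, 269 and 242 CPM to 583, 669 and 527 CPM (1.17 ± 0.18, edgeR adjusted p = 1.22e-07). With counts thinned to equal totals its value was 0.96, under the fold threshold, and the Tnip3 call was also lost. Cd14, which passes lipopeptides and lipopolysaccharide to their receptors, went from 359, 378 and 339 CPM to 1257, 1396 and 1205 CPM (1.84 ± 0.16). Tlr1 (1.6 ± 0.48, edgeR adjusted p = 0.0238) lost the call when any of 4 libraries was left out, and its sign turned when counts were thinned to equal totals (-0.15).

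Socs3, the feedback inhibitor of Stat3 signalling, rose from 139 to 758 CPM (log2 fold change 2.44 ± 0.2), and Sod2, mitochondrial superoxide dismutase, from 964 to 2282 CPM (1.24 ± 0.11). Acpp, an acid phosphatase, went from 49.0, 70.4 and 53.2 CPM to 330, 382 and 383 CPM (2.65 ± 0.27, edgeR adjusted p = 1.49e-16). Saa3 went from 417 to 2193 CPM (2.4 ± 0.21) and Lcn2, an iron-siderophore binder, from 112 to 366 CPM (1.71). 1600029D21Rik had a ratio of 34.6 (95% counting interval 5.83 to 1405) and Slc39a14, a zinc and iron importer, of 11.5 (1.71 to 493). The Slc39a14 call (edgeR adjusted p = 0.0322) was lost in 6 of 12 alternatives, with DESeq2, with no filter on low counts and without triplet replicate 1 or 3 or Zymosan + cGAMP replicate 1 or 3. Ptges, prostaglandin E synthase, had 1.41 ± 0.32 (edgeR adjusted p = 0.000956), lost without Zymosan + cGAMP replicate 3 and with counts thinned to equal totals (0.56).

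Among the falls with PAM, Rgs2, a regulator of G protein signalling, went from a mean of 210 to 56.7 CPM (log2 fold change -1.88 ± 0.33, edgeR adjusted p = 2.89e-06). 5430435G22Rik had a log2 fold change of -2.78 ± 0.58. Cd300lb, an activating myeloid receptor, had a triplet-to-pair ratio of 0.037 (95% counting interval 0.000902 to 0.225). The calls of 5430435G22Rik and Cd300lb were lost with counts thinned to equal totals. Tnfsf10, the death ligand TRAIL, went from 147, 128 and 126 CPM to 84.2, 38.2 and 41.4 CPM (-1.29, edgeR adjusted p = 0.0269). The Tnfsf10 call was not kept in every fit that left out a library. Rab19, 2310022A10Rik and Slc37a2 passed (-2.17, -2.07 and -1.95) but lost the call with single libraries left out.

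With PAM added, 3.14% of all tested genes were called and 15.4% had an unadjusted p under 0.05. No interferon-stimulated gene was called by edgeR or DESeq2 (0 of 15, median 0.04, 1 with an unadjusted p under 0.05), nor any glycolysis gene (0 of 17, 3 with an unadjusted p under 0.05 and 0 by DESeq2), and 0 calls in lists of this size is near the share over all genes. The share of called genes that were higher was 73.0% with TMM and 55.0% with library size alone (82 against 67), where the median of all genes was -0.11, and 64.9% after centring on that median.

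Genes above all 3 pairs were few. Taking the largest p of the 3 comparisons, adjusted over all genes, and a log2 fold change of at least 1 in each, edgeR called 2 genes higher in the triplet than in every pair (0.0424%), Il33 and A630072M18Rik. Neither was called without Zymosan + cGAMP replicate 1 or with counts thinned to equal totals. Il33 was also not called without triplet replicate 3, PAM + cGAMP replicate 3 or Zymosan + cGAMP replicate 2 or with DESeq2, and A630072M18Rik not without triplet replicate 2 or with library size alone. None was called lower than every pair (0.0%) by edgeR or DESeq2. At an unadjusted p under 0.05 in all 3 comparisons, 26 genes were above and 17 below all 3 pairs, of which 6 and 12 also passed the fold threshold. Among the 35 triplets of the series the number above all pairs ranged from 0 to 7, and 2 triplets had more than this one.

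Il33, an alarmin cytokine of the interleukin 1 family, was not detected in PAM + Zymosan, with 0 UMIs in 3 libraries. It had 26.5, 34.2 and 6.84 CPM in PAM + cGAMP, 0, 38.4 and 43.6 CPM in Zymosan + cGAMP, and 104, 102 and 186 CPM in the triplet. Every triplet library lay above every pair library. Against the floor of 3 UMIs over the group, the triplet was at least 19.4-fold higher than PAM + Zymosan, and it was 5.82-fold higher than PAM + cGAMP (log2 fold change 2.54 ± 0.53, edgeR adjusted p = 0.000337). The rise of 4.29-fold over Zymosan + cGAMP (2.1 ± 0.47, edgeR adjusted p = 0.0007) was lost without triplet replicate 3. Singly, PAM and Ctrl gave 0 UMIs in all libraries, and Zymosan and cGAMP had means of 1.56 and 2.05 CPM. The gene lies at chr19:29925114-29960718, plus strand, GRCm38.

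A630072M18Rik, a transcript at chr5:20950989-20956398 on the plus strand of GRCm38, antisense to Rsbn1l, stood at 304, 503 and 403 CPM in the triplet. The pairs had 42.1, 66.3 and 84.9 CPM (PAM + Zymosan), 106, 82.0 and 116 CPM (PAM + cGAMP) and 155, 218 and 194 CPM (Zymosan + cGAMP). No pair library reached the triplet. The log2 fold changes were 2.54 ± 0.28 for cGAMP, 1.99 ± 0.26 for Zymosan and 1.08 ± 0.22 for PAM (edgeR adjusted p = 2.42e-15, 8.46e-10 and 0.000145). The last was 0.96 with library size alone and fell under the threshold without triplet replicate 2 or Zymosan + cGAMP replicate 1. Since strand use in counting is not given in the sources used here, its reads cannot be told apart from those of Rsbn1l.

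**Figure D4:**
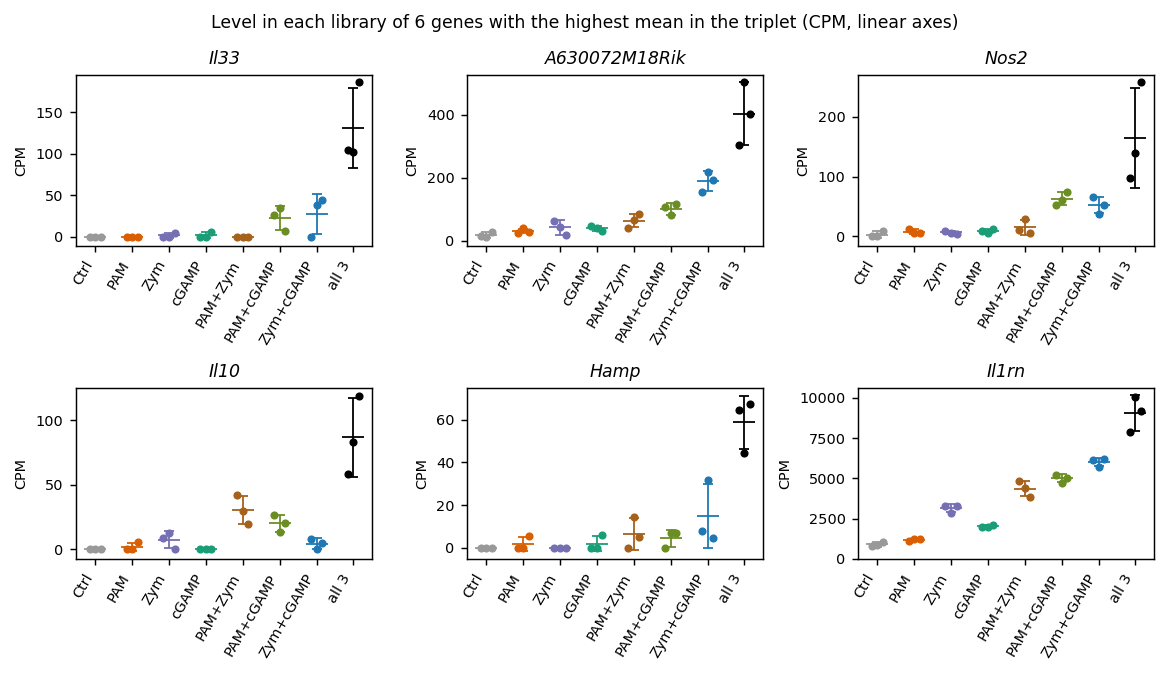
Level (CPM, linear axes) in each library of the 8 groups of 6 genes with their highest mean in the triplet, with ticks at group means and bars of 1 SD. The triplet points of Il33 and A630072M18Rik lie above all pair points; Nos2, Il10 and Hamp pass in each of the 3 comparisons but not after the joint adjustment, and Il1rn is under the fold threshold for Zymosan and PAM.

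Further genes had their highest mean in the triplet but were not called above all 3 pairs. They were picked after their values were seen. Il10, Nos2 and Hamp passed the fold threshold and edgeR's adjusted p in each of the 3 comparisons, but the largest of their 3 p-values, adjusted over all genes, was 0.277, 0.0993 and 0.386. Il1rn passed that adjustment (0.0468) and was under the fold threshold in 2 comparisons. Il1rn, the interleukin 1 receptor antagonist, stood at 7890, 10075 and 9197 CPM, above every pair library, the highest of which had 6175 CPM in Zymosan + cGAMP. Its log2 fold changes were 1.06 ± 0.15 for cGAMP, 0.86 ± 0.15 for Zymosan and 0.59 ± 0.15 for PAM (edgeR adjusted p = 1.19e-09, 8.43e-06 and 0.00366). With no fold threshold 4 genes were above all 3 pairs, adding Srgn and Il1rn.

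Il10, the anti-inflammatory cytokine, had 58.3, 82.8 and 119 CPM in the triplet. The pairs held 42.1, 29.5 and 20.0 CPM (PAM + Zymosan), 26.5, 13.7 and 20.5 CPM (PAM + cGAMP) and 8.16, 0 and 4.84 CPM (Zymosan + cGAMP), all lower than the triplet. The log2 fold changes were 1.63 ± 0.5 for cGAMP and 2.12 ± 0.55 for Zymosan (edgeR adjusted p = 0.00797 and 0.00786). Both calls were lost without triplet replicate 3, the first also without PAM + Zymosan replicate 3 and the second also without PAM + cGAMP replicate 2. For PAM the ratio was 21.6 (95% counting interval 5.65 to 184). Ctrl and cGAMP alone had 0 UMIs.

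Nos2, the inducible nitric oxide synthase, had 97.2, 140 and 258 CPM in the triplet and at most 75.2 CPM in any pair library. Its log2 fold changes were 3.54 ± 0.52 for cGAMP, 1.4 ± 0.38 for Zymosan and 1.71 ± 0.38 for PAM (edgeR adjusted p = 3.26e-09, 0.0145 and 0.000581). The calls for Zymosan and PAM were lost without triplet replicate 3, and that for Zymosan also without PAM + cGAMP replicate 1 or 2 and with counts thinned to equal totals (lowest value 0.77). Hamp, which encodes the iron hormone hepcidin, had 64.8, 44.6 and 67.2 CPM in the triplet. It had 3 UMIs in PAM + Zymosan and 2 in PAM + cGAMP, giving ratios of 8.54 (2.66 to 43.7) and 12.1 (3.06 to 104), and 8.16, 32.0 and 4.84 CPM in Zymosan + cGAMP (1.98 ± 0.63, edgeR adjusted p = 0.0411).

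The effect of each ligand on the pair was then set against its effect on untreated cells, and the difference itself was tested without a fold threshold. Alone, cGAMP, Zymosan and PAM changed 830 (17.6%), 295 (6.25%) and 656 (13.9%) genes. These effects, the differences from them and the three-way interaction below all use Ctrl. The Ctrl libraries held 61823 to 89530 UMIs (median 68941), the fewest of the 8 groups. Their TMM factors of 1.26 to 1.27 were the highest of the 8 groups. The effect on the pair differed from the effect alone for 109 genes with cGAMP (2.31%), 203 with Zymosan (4.3%) and 238 with PAM (5.04%). Positive differences, where the log2 fold change on the pair was the more positive one, made up 39 (0.826%), 39 (0.826%) and 75 (1.59%) of these, and negative ones 70 (1.48%), 164 (3.47%) and 163 (3.45%). The splits depended on scaling: with edgeR's relative log expression scaling the shares of positive differences were 44.9%, 34.9% and 44.6%, against 35.8%, 19.2% and 31.5% with TMM.

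The inflammatory list shows this. With Zymosan the difference was negative for 9 of its 13 tested members and positive for none, with PAM for 8, and with cGAMP for 1. Tnf rose with each ligand alone, by 2.04 on the log2 scale with cGAMP, 2.65 with Zymosan and 3.24 with PAM. On the pairs the effects were 1.26, 0.01 and 1.19. Cxcl2 changed by 0.1 with cGAMP alone, 2.97 with Zymosan alone and 4.27 with PAM alone, against -0.4, -0.31 and 1.53 on the pairs. Clec4e, which encodes the receptor Mincle, had 1.47, 2.8 and 3.34 alone and -0.15, -0.31 and 0.47 on the pairs.

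For interferon-stimulated genes the difference was negative with Zymosan for 6 of 15 (Ifit1, Ifit3, Rsad2, Mx1, Cmpk2 and Cxcl10), and for Mx1 alone with cGAMP and with PAM. Irg1 rose alone by 3.13 with cGAMP, 1.5 with Zymosan and 2.52 with PAM, against 1.41, -0.56 and 0.18 on the pairs. The amino acid transporter Slc7a2 had 2.24, 1.78 and 3.68 alone and 0.15, -0.3 and 0.82 on the pairs, and the membrane protein Ms4a6d 2.18, 0.99 and 2.93 against 0.11, -0.27 and 0.73.

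Positive differences came in more than one form. Ehd4, an endocytic recycling protein, changed by -0.12 with cGAMP alone but rose from 21.1, 14.7 and 25.0 CPM to 201, 255 and 233 CPM when cGAMP joined PAM + Zymosan (log2 fold change 3.42 ± 0.38). PAM and Zymosan alone had means of 39.2 and 44.3 CPM, beside 140 in Ctrl. Slc2a1 had -1.22 with cGAMP alone and 0.39 on the pair, and 1.0 with Zymosan alone and 2.22 on the pair, differences of 1.61 and 1.22 (edgeR adjusted p = 0.00335 and 0.0314). Atf3, a stress-induced repressor, had -1.44 with PAM alone and 0.31 on the pair.

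**Figure D5:**
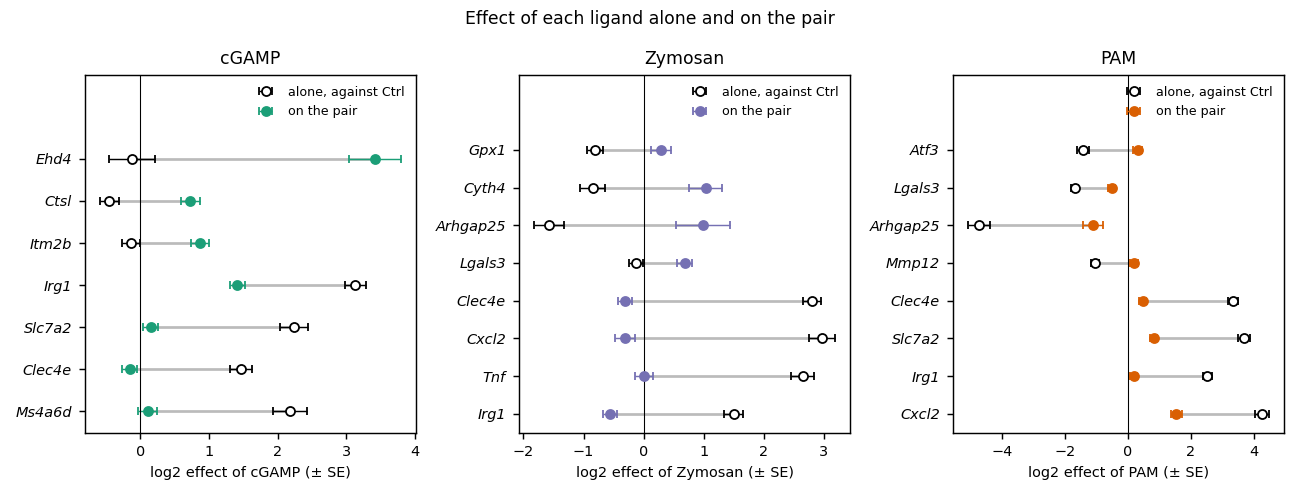
log2 fold change of each ligand given alone (against Ctrl) and added to the pair of the others, for genes named for each ligand, with bars of 1 standard error. Genes induced alone, such as Clec4e, Irg1, Tnf and Cxcl2, lie nearer 0 on the pair; Ehd4 lies near 0 with cGAMP alone and at 3.42 on the pair.

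The three-way interaction, which asks whether the triplet departs from what singles and pairs give when their log2 effects are added, was called for 20 genes (0.424%), 14 positive (0.297%) and 6 negative (0.127%). Positive terms included Clec4e (1.57 ± 0.25, edgeR adjusted p = 5.85e-06), Irg1 (1.46 ± 0.25), Sod2 (1.33 ± 0.23), the class I-like gene H2-M2 (2.04 ± 0.37) and Rassf4 (1.68 ± 0.32). For Clec4e the level was 3537, 3033 and 2807 CPM in the triplet, overlapping or below the 3326 to 3676 CPM of PAM + Zymosan and the 3706 to 4060 CPM of PAM + cGAMP. The triplet was higher than Zymosan + cGAMP, 1.39-fold and without overlap (0.47 ± 0.11, edgeR adjusted p = 0.000835). The singles gave means of 3891 CPM (PAM), 2686 CPM (Zymosan) and 1068 CPM (cGAMP).

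Tlr2 (1.85, edgeR adjusted p = 0.0318) and Mx1 (1.25, edgeR adjusted p = 0.0291) also had positive terms. Negative terms included those of Atf3 (-1.66 ± 0.32), the GTPase regulator Arhgap25 (-4.19 ± 0.82), the Fc receptor Fcgr3 (-2.16 ± 0.49), Ccl4 (-1.45 ± 0.33) and the noncoding RNA Neat1 (-1.04 ± 0.26, edgeR adjusted p = 0.0291). Thinned to equal totals, 4 positive and 0 negative terms were called of 1826 genes tested. Clec4e and Irg1 were among the 4, while Sod2, H2-M2 and Rassf4 lost the call. Neat1 also lost it under many of the other alternatives, Fcgr3 without PAM + cGAMP replicate 3 and Ccl4 without Ctrl or PAM replicate 2. Ccl4 had its highest mean in the triplet, so a negative term there did not mean a lower level. With library size alone 80.0% of the called terms were positive, against 70.0% with TMM.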

How the data were processed

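RNA libraries with unique molecular identifiers were measured in 192 samples, of which the 24 of 8 groups carry the results here. The deposited table holds raw UMI counts for 23481 genes by symbol. Reads were aligned with BWA 0.7.15 to mm10, per the submitters' processing notes; the collapsing of UMIs, the annotation and the use of strand are not given in the sources used here. Counts of the 12 triplet and pair libraries summed to 92149 to 224413 (median 173349), which limits precision for genes of a few CPM. Counting intervals and the floor of 3 UMIs cover counting error only.

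All 192 libraries (64 groups of 3) entered 1 fit in edgeR 4.0.16 (limma 3.58.1, R 4.3.3), with TMM factors, edgeR's filter on low counts (4720 genes kept, 95.7% of UMIs) and a coefficient for each group. The quasi-likelihood test was adjusted by Benjamini-Hochberg within each contrast, and its two-sided p-values rest on 128 residual degrees of freedom. Ratios with 3 or fewer counts in a group have exact 95% intervals. The code was tested on simulated data. Alternatives were other scalings, DESeq2 1.42.0, no filter on low counts, the 8 groups alone, no fold threshold, a replicate block, thinning to 46564 UMIs and leaving out each library.

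The comparisons, gene lists and named genes were chosen with earlier results of these data known. Named were 11 genes by name (Il6, Il12b, Tnf, Il10, Il1b, Ifnb1, Cxcl10, Ifit1, Tlr2, Clec7a, Tmem173) and, for each triplet and pair, the 8 largest rises and 6 largest falls among called genes that reached a mean of 50 CPM in either group and whose libraries did not overlap. Also named were up to 12 genes above or below all 3 pairs, 5 interactions and 4 differences of each sign, and up to 4 called members of each list. Some of the genes this rule names are not reported here. Coordinates come from GENCODE vM21 on GRCm38, where 4516 of the 4720 tested symbols matched. Promoter windows come from RefSeq on GRCm38.p6, for 3614 of them.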

Additional observations from a re-analysis of the deposited data

Results flagged for a closer look

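The effect of a ligand on the pair differed from its effect alone, by a test of the difference itself, for 109 genes with cGAMP, 203 with Zymosan and 238 with PAM. The values below are log2 effects on the pair minus log2 effects alone, for the genes named by the rule above, all with an edgeR adjusted p under the threshold.

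With cGAMP the positive differences were those of Ehd4 (3.54), Ctsl, a lysosomal protease (1.17), and Itm2b (1.01). The negative ones were those of Irg1 (-1.72), Slc7a2 (-2.09), Clec4e (-1.62) and Ms4a6d (-2.07).

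With Zymosan the positive differences were those of Gpx1, glutathione peroxidase (1.10), Cyth4 (1.88), Arhgap25 (2.56) and the lectin Lgals3 (0.80). The negative ones were those of Clec4e (-3.11), Cxcl2 (-3.28), Tnf (-2.63) and Irg1 (-2.06).

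With PAM the positive differences were those of Atf3 (1.75), Lgals3 (1.17), Arhgap25 (3.63) and the macrophage elastase Mmp12 (1.21). The negative ones were those of Clec4e (-2.87), Slc7a2 (-2.86), Irg1 (-2.34) and Cxcl2 (-2.75).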

How the results depend on the processing

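Thinned to equal totals, where 1826 genes were tested in place of 4720, 403 genes were called for cGAMP, 34 for Zymosan, 70 for PAM, 4 for the three-way interaction, 56, 97 and 116 for the cGAMP, Zymosan and PAM effects on the pair against alone, and 0 above all 3 pairs. With no fold threshold 157 genes passed for Zymosan and 260 for PAM, and 4 lay above all pairs. With only the 8 groups fitted, where 3643 genes were tested, the interaction was called for 34 genes, and 1 gene lay below all pairs (Myo1f). With library size alone (Il33) and with DESeq2 (A630072M18Rik) 1 gene lay above all pairs. Leaving out single libraries gave 754 to 868 genes for cGAMP, 53 to 78 for Zymosan (53 without PAM + cGAMP replicate 2), 111 to 125 for PAM, 15 to 28 for the interaction, and 77 to 113, 137 to 214 and 198 to 229 for the 3 effects against alone. Above all pairs it gave 0 (without Zymosan + cGAMP replicate 1) to 3 (without triplet replicate 1, adding Nos2), and 1 without triplet replicate 2 or 3, PAM + cGAMP replicate 3 or Zymosan + cGAMP replicate 2. The causes were not tested, beyond the lower depth in thinning and the fewer libraries in leaving out.

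Of 266 results on named genes 206 kept their side of the threshold in all alternatives, 58 lost the call in at least 1 and 2 gained it. Among called results 1 changed sign, Tlr1 for PAM when thinned (-0.15, edgeR adjusted p = 0.957). Among results not called 26 changed sign in at least 1 alternative, Il12b for cGAMP (1.64, edgeR adjusted p = 0.0551, called in 5 of 13 alternatives and -0.54 in 1) and Tmem173 for cGAMP (0.46, and -0.62 in 1) among them. DESeq2 gave 828, 66 and 124 genes for cGAMP, Zymosan and PAM. Same-numbered replicates showed little shared deviation (18 correlations from -0.0154 to 0.0617, and 13 of 36 highest with their own number). Such values cannot show whether same-numbered libraries came from the same culture or mouse, which the labels do not say. With a replicate block 930, 87 and 148 genes were called for cGAMP, Zymosan and PAM, 21 for the interaction, 118, 213 and 252 for the effects against alone, and 2 above all pairs. With no filter on low counts the positive share of the effects against alone was 14.9%, 8.47% and 16.1%, and 85.0% of the interactions were positive. With only the 8 groups 61.8% were. Depth limits the genes of a few CPM: against a group with no UMI only a lower bound is given.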
